A study of Homo sapiens with 3 samples.

Results

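Wide codanin-1 peaks are the chromatin regions described here: rows of the codanin-1 peak list with a width of 700 bp or more on chromosomes 1 to 21, leaving out the megabase of chromosome 9 that starts at 133 Mb. The rule kept 309 of the 14365 codanin-1 peaks. It left 12608 peaks under 700 bp on the same chromosomes, which are the reference throughout, so that 2.39% of the 12917 peaks there were wide (95% exact interval 2.14 to 2.67). Chromosomes 22, X and Y are not part of the set. Peaks were chosen by their width in the codanin-1 library, so width and the fold enrichment and significance of the same peaks are given as description only.

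The study used K562, a human erythroleukaemia cell line, and chromatin immunoprecipitation followed by sequencing (ChIP-seq). There were 3 libraries, 1 for each antibody: Cod1, a homemade antibody against residues 123 to 142 of codanin-1, N6 against GATA1, and IgG. Peak lists of the Cod1 and GATA1 libraries were analysed, and a list for IgG was not analysed here. Each library was prepared from cells fixed for 10 minutes. With 1 library for each antibody no value has a replicate error, and the intervals printed are exact binomial intervals that cover counting error only. Neighbouring peaks are not independent, so these intervals are too narrow for groups of adjacent peaks, and no difference between classes of peaks was tested.

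Codanin-1 is the product of CDAN1, mutated in congenital dyserythropoietic anaemia type I, a disease in which erythroblasts have abnormally structured nuclear chromatin. It binds the histone chaperone ASF1, which carries newly made histones H3 and H4 to chromatin. It has no well established DNA sequence of its own, whereas GATA1, the erythroid transcription factor, recognises a short GATA motif and usually gives narrow ChIP-seq peaks. In broad peak calling, neighbouring stretches of enrichment are linked into 1 region, so the width of a peak reflects how far enrichment extends as well as how the caller joins its parts.

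The wide peaks were short compared with broad histone domains. Their widths ran from 700 to 4568 bp with a median of 871 bp, and 95 of the 309 reached 1000 bp. The reference peaks had a median width of 205 bp. The authors' fold enrichment, the ratio of the library to the background used by their caller, had a median of 3.88 in wide peaks (lowest 1.602, highest 5.68) and 4.00 in the reference (1.36 to 8.09). A fold enrichment under 3 was found in 42 wide peaks (13.6%) and in 154 reference peaks (1.22%). The median −log10 q was 1.76 in wide and 1.59 in reference peaks.

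The threshold fell in a continuous distribution of widths. The narrowest members were chr16:33390667-33391366 and chr6:159252405-159253104, both 700 bp wide, and chr1:205464419-205465119 with 701 bp. Their fold enrichments were 4.05, 3.58 and 4.30. Just outside lay chr1:37454508-37455206 and chr7:4016130-4016828 with 699 bp, and chr2:23912218-23912915 with 698 bp, at fold enrichments of 3.88, 4.03 and 4.43. Of the 56 peaks of 700 to 749 bp, 19.6% overlapped a GATA1 peak (95% exact interval 10.2 to 32.4), and of the 90 peaks of 650 to 699 bp 16.7% did (9.64 to 26.0). The peaks named on either side of the threshold were thus alike in enrichment. The overlap shares of the width classes on either side had intervals that largely coincide.

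Of the 10 widest members, 9 overlapped a GATA1 peak and 6 stood in a run of neighbouring wide peaks. Among all wide peaks these shares were 36.6% and 32.7%, and 4.15% of all peaks on these chromosomes overlapped GATA1. A longer peak meets another more easily. The widest was chr18:106757-111324, near the start of the short arm, with a width of 4568 bp and a fold enrichment of 1.72, and 86.7% of it was covered by 3 GATA1 peaks. Next came chr5:17593105-17595868, 2764 bp wide at 3.09-fold, of which GATA1 peaks covered 15.7%. The peak at chr6:169526001-169528645 was 2645 bp wide at 4.68-fold and was covered over 4.95% of its length. These regions show that width alone did not fix how much of a peak the GATA1 list covered.

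Further members of this group were covered almost completely. The peaks chr4:49514556-49517145 (2590 bp, 2.31-fold), chr21:9698600-9700741 (2142 bp, 2.34-fold) and chr21:9825462-9827486 (2025 bp, 1.602-fold) each met a single GATA1 peak, which covered 98.8%, 100% and 100% of them. The peak chr1:143278752-143280577 (1826 bp, 2.32-fold) was covered over 84.7% and chr4:49292831-49294625 (1795 bp, 2.44-fold) over 84.0%. As background, these stretches of chromosomes 1, 4 and 21 belong to the wider regions around the centromeres, where satellite repeats and duplicated segments are common. The lists name no repeats and no hg19 annotation was used, so whether the peaks lie in such repeats was not tested. The pair left was chr6:157731425-157733238, 1814 bp wide at 3.31-fold and covered over 49.7%, and chr9:132455767-132457646, 1880 bp wide at 3.59-fold. The chromosome 9 peak, which lies below the omitted megabase, overlapped no GATA1 peak, and the nearest was 15235 bp away.

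Wide peaks were unevenly spread over chromosomes. The largest shares of wide peaks were on chromosome 4, with 26 of 399 peaks (6.52%, 95% exact interval 4.30 to 9.40), chromosome 9, with 21 of 389 (5.40%, 3.37 to 8.13), and chromosome 13, with 4 of 79 (5.06%, 1.40 to 12.5). Chromosome 13 held few peaks of any width, and its interval includes the share over all chromosomes. The smallest shares were on chromosome 12, with 0 of 386, which allows a share of up to 0.777%, on chromosome 15, with 1 of 392 (0.255%, 0.00646 to 1.41), and on chromosome 11, with 6 of 450 (1.33%, 0.491 to 2.88). Chromosome 1 held the most wide peaks, 56, but they were 2.22% of its 2518 peaks. The high share on chromosome 4 rested in part on 1 window: without the megabase from 49000001 to 50000000 it was 13 of 352 (3.69%, 1.98 to 6.23). Chromosome 21, with 18 of 384 (4.69%, 2.80 to 7.31), likewise came to 14 of 356 (3.93%, 2.17 to 6.51) without its megabase from 9 Mb. Without these windows both intervals include the share over all chromosomes.

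**Figure D1:**
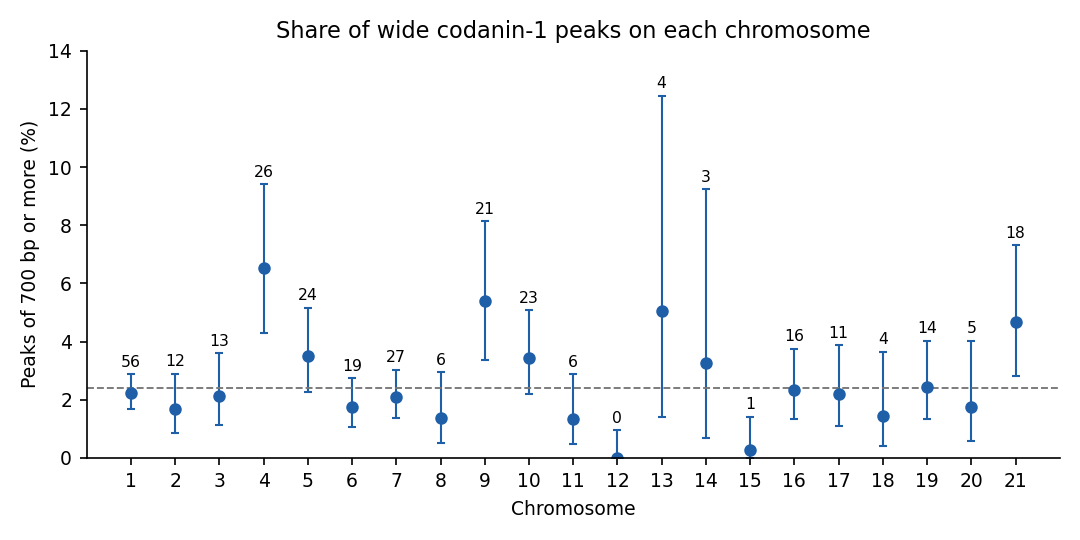
Share of codanin-1 peaks of 700 bp or more on each of chromosomes 1 to 21 (y axis, percent of that chromosome's peaks), with 95% exact binomial intervals as bars and the number of wide peaks above each point. The dashed line is the share over all these chromosomes, 2.39%; chromosomes 4, 9 and 21 have intervals above it, for 4 and 21 not without 1 window each, and chromosomes 12 and 15 below it.

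Most wide peaks were scattered, and a minority was gathered in a few windows. They fell in 193 of the 1926 windows of 1 Mb that held a codanin-1 peak. Of these, 137 windows held a single wide peak, while 12 windows held 4 or more and together contained 70 wide peaks (22.7%). The fullest window, on chromosome 4 from 49000001 to 50000000, held 13 wide peaks among 47 codanin-1 peaks. It was followed by chromosome 16 from 33000001 to 34000000, with 8 of 41, and by chromosome 10 from 135000001 to 136000000, with 7 of 23. In these 3 windows 11, 6 and 5 of the wide peaks overlapped a GATA1 peak, and the windows held 64, 39 and 20 GATA1 peaks. The last codanin-1 or GATA1 peak of chromosome 10 lies in the third of these windows.

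Wide peaks were more frequent than reference peaks near the first and last peaks of chromosomes. No chromosome lengths of the files' build were used, so either list's outermost peak stood for an end. On chromosomes 13, 14, 15 and 21 the first peak lay more than 5 Mb from position 1 and does not mark the tip. Within 1 Mb of a first or last peak lay 36 wide peaks (11.7%, 95% exact interval 8.29 to 15.8), against 5.09% of the reference (4.71 to 5.49). Without the starts of those 4 chromosomes there were 30 wide peaks (9.71%, 6.65 to 13.6) and 4.35% of the reference (4.00 to 4.73). This alternative was added after seeing the data.

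Of the 36 wide peaks, 19 overlapped a GATA1 peak (52.8%, 35.5 to 69.6), including all 6 at the starts of those chromosomes, and 12.9% of reference peaks did (10.4 to 15.8). Without those starts the counts were 13 of 30 wide peaks (43.3%, 25.5 to 62.6) and 11.8% of reference peaks (9.26 to 14.8). The 273 wide peaks farther in overlapped in 34.4% (28.8 to 40.4) and the reference peaks there in 2.84% (2.55 to 3.16). The contrast between wide and reference peaks was thus present both near the outermost peaks and away from them.

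Wide peaks lay closer to their nearest codanin-1 peak than reference peaks did. The median distance from a wide peak to the nearest codanin-1 peak of any width, between midpoints, was 7342 bp (95% exact interval 5874 to 11666), and from a reference peak 24498 bp (23577 to 25566). The lower quartile of this distance was 2093 bp for wide peaks and 7440 bp for the reference. Within 10 kb lay the neighbour of 171 wide peaks (55.3%, 49.6 to 61.0) and of 30.9% of reference peaks (30.1 to 31.7). Against reference peaks from the same windows the difference was smaller. The 3212 reference peaks in the 193 windows that held a wide peak had a median distance of 9710 bp (9017 to 10442), an interval that overlaps that of the wide peaks. These reference peaks are not matched in crowding: their megabase held a median of 24 codanin-1 peaks, and that of wide peaks 21.

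**Figure D2:**
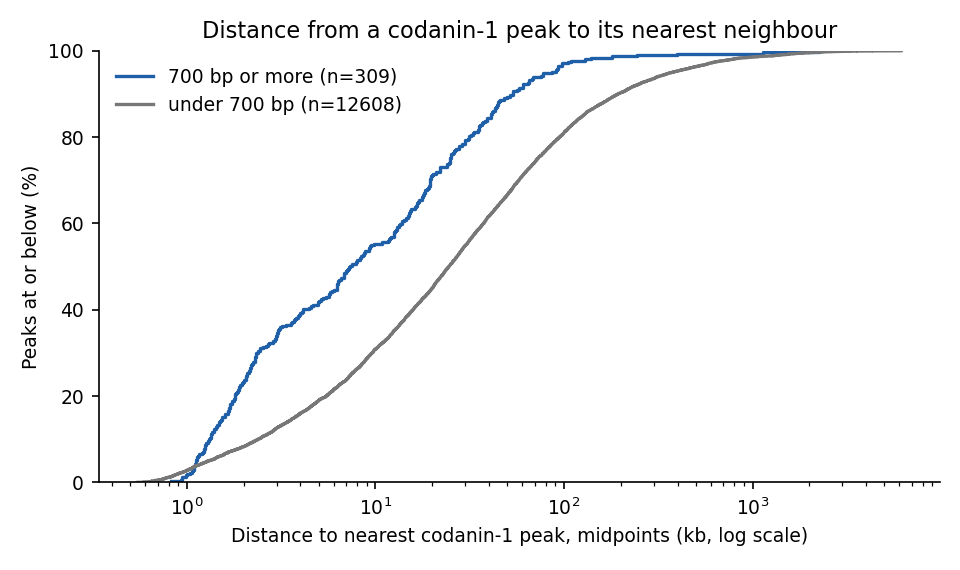
Cumulative share of codanin-1 peaks (y axis, percent) by distance to the nearest codanin-1 peak on the chromosome, midpoint to midpoint (x axis, kb, log scale), for 309 wide peaks and 12608 peaks under 700 bp. The curve of the wide peaks lies to the left, with medians of 7342 bp against 24498 bp.

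The crowding itself differed between the classes. The median number of codanin-1 peaks in the megabase around a wide peak was 21, and around a reference peak 12. Windows with 20 or more peaks held 158 wide peaks (51.1%) and 28.9% of the reference. In those windows the median neighbour distance was 4619 bp for wide peaks (95% exact interval 3032 to 6325) and 8587 bp for reference peaks (8101 to 9100). In windows with 10 to 19 peaks the medians were 12110.0 bp (6798 to 18366) and 20992 bp (20258 to 21980). In windows with 5 to 9 peaks the intervals overlapped, at 20967 bp (7039 to 53495) and 45325 bp (42776 to 48263). In the 2 most crowded classes the neighbours of wide peaks were the closer ones.

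Wide peaks also tended to stand beside each other. The nearest codanin-1 peak was itself wide for 34 of 309 wide peaks (11%, 95% exact interval 7.74 to 15.04), and for 284 of 12608 reference peaks (2.25%, 2.00 to 2.53). Over all peaks this share was 2.46%. Among reference peaks of the windows that held a wide peak it was 8.59% (7.65 to 9.62), but every such window holds a wide peak by construction, so this value is set high. Most wide peaks, then, had a narrow peak as their closest neighbour. Consecutive peaks were never closer than 406 bp edge to edge. Of the 31 pairs of wide peaks with nothing between them, 11 were under 1000 bp apart, against 378 of all 12896 consecutive pairs.

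Runs were defined as 2 or more wide peaks, each within 50 kb of the next. There were 36 runs on 14 chromosomes, and they held 101 wide peaks (32.7%, 95% exact interval 27.5 to 38.2). The other 208 had no wide peak within that distance. Of the reference, 6.91% had a wide peak within 50 kb (6.47 to 7.37), and in windows with a wide peak 26.5% did (24.97 to 28.1). Pairs made up 25 of the runs, and 11 runs had 3 or more members. Runs were thus few, and 11 of them carried 51 of the 101 wide peaks. Neighbour distances were shorter in the runs: the median was 1817 bp for the 101 wide peaks in runs (1664 to 2301) and 16528 bp for the 208 outside them (12988 to 19508). Short distances were not confined to runs, since 91 of the 171 wide peaks with a neighbour within 10 kb stood in one. Outside runs it was longer than that of reference peaks in windows with a wide peak, 9710 bp, and shorter than that of all reference peaks. A run needs neighbouring wide peaks by definition, so part of the median in runs is set by the rule. Peaks outside runs have no wide peak within 50 kb by definition, which sets part of their median high. Reference peaks meet no such limit.

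The largest run, chr4:49281445-49332853, held 10 wide peaks in 51.4 kb. All 10 overlapped GATA1 peaks, of which 37 lay in the span, and 14 narrower codanin-1 peaks lay between them. Fold enrichments in this run were low, from 2.40 to 3.11, while −log10 q ranged from 2.20 to 5.10. Midpoints of consecutive wide peaks were 1.29 to 13.4 kb apart. In 9 of the 10 peaks GATA1 peaks covered at least 84.0% of the length, and the other, chr4:49323430-49324323, was covered over 66.1%.

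The second run, chr10:135462053-135501405, held 7 wide peaks in 39.4 kb and ended 0.199 kb before the last peak of chromosome 10. Coverage by GATA1 peaks differed along this run: the first 2 peaks overlapped none, the third was covered over 37.3%, and the last over 100%. The last peak, chr10:135500071-135501405, had a fold enrichment of 1.77 and the others 2.80 to 3.55. The fifth run, chr4:190979878-190997228, likewise lay at the end of a long arm, 16.5 kb before the last peak of chromosome 4, with 4 wide peaks in 17.4 kb. Its last pair, chr4:190992471-190993953 and chr4:190995798-190997228, was covered over 99.1% and 100%. Midpoints of consecutive wide peaks were 1.69 to 10.2 kb apart in the second run and 1.77 to 11.1 kb apart in the fifth. As background, the tips of 4q and 10q both carry the D4Z4 macrosatellite, a tandem repeat that holds copies of DUX4. Whether these peaks lie in that array was not tested.

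The third run, chr19:36762013-36779188, held 6 wide peaks in 17.2 kb, all with a GATA1 peak, and 16 GATA1 peaks lay in its span. Its fold enrichments were close to each other, from 3.20 to 3.64, and −log10 q ran from 1.35 to 1.79. GATA1 coverage of the 6 peaks ranged from 38.1% to 100%. The fourth run, chr5:21481788-21497276, held 5 wide peaks in 15.5 kb with fold enrichments of 3.27 to 3.72. There 4 of 5 overlapped a GATA1 peak, with coverage from 6.49% to 45.9%. Both runs lie inside chromosome arms. Across the 5 runs 28 of 32 wide peaks overlapped GATA1, with less of each peak covered on chromosome 5 than in the largest run. The overlap share was 36.6% over all wide peaks and 4.15% over all codanin-1 peaks on these chromosomes.

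**Figure D3:**
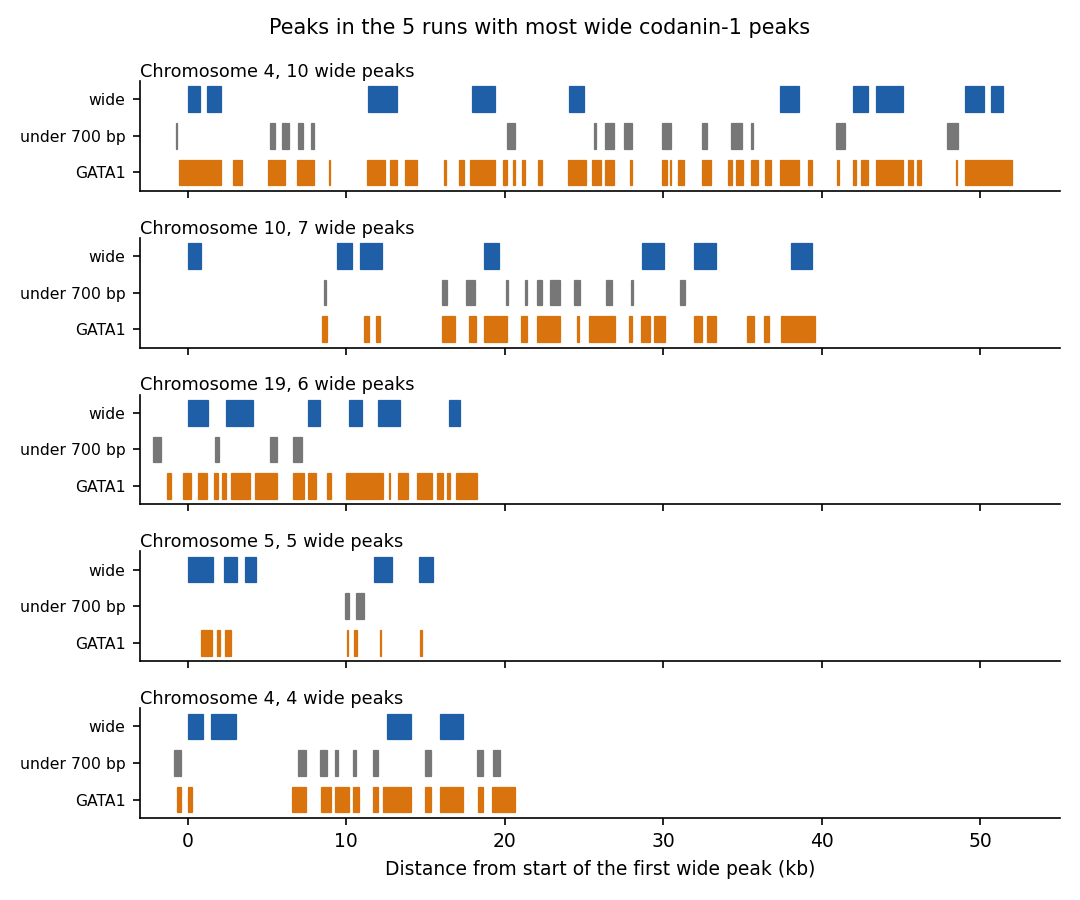
The 5 runs with most wide codanin-1 peaks, 1 panel each, drawn to a common scale as distance from the start of the first wide peak (x axis, kb). Blue boxes are codanin-1 peaks of 700 bp or more, grey boxes codanin-1 peaks under 700 bp and orange boxes GATA1 peaks; all 10 wide peaks of the first panel are overlapped by GATA1 peaks, and the chromosome 5 panel holds 7 GATA1 peaks.

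A GATA1 peak overlapped wide codanin-1 peaks far more often than reference peaks. By at least 1 bp, 113 of 309 wide peaks met a GATA1 peak (36.6%, 95% exact interval 31.2 to 42.2), compared with 423 of 12608 reference peaks (3.36%, 3.05 to 3.68). Over all codanin-1 peaks on these chromosomes the share was 4.15%. Of the wide peaks, 81 met 1 GATA1 peak, 26 met 2 and 6 met 3. The remaining 196 met none.

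The 1 bp rule favours wide peaks, because more bases offer more chances to touch a GATA1 peak. Asking instead whether a GATA1 peak covered the midpoint, 1 base in each codanin-1 peak, gave 59 wide peaks (19.1%, 95% exact interval 14.9 to 23.9) and 288 reference peaks (2.28%, 2.03 to 2.56), against 2.69% of all. Within a fixed 700 bp centred on the midpoint the shares were 33.0% (27.8 to 38.6) and 4.00% (3.66 to 4.35). GATA1 peaks covered 23.4% of the 303.5 kb in wide peaks and 2.67% of the 3055 kb in reference peaks. The contrast thus stood with each rule that does not depend on width, at a smaller size for the midpoint than for the whole peak.

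The share rose with width on both sides of the threshold. It was 1.46% under 150 bp, 4.66% from 300 to 499 bp and 10.2% from 500 to 699 bp. Among wide peaks it was 23.4% (95% exact interval 17.9 to 29.6) from 700 to 999 bp, 63.2% (51.3 to 73.9) from 1000 to 1499 bp and 78.9% (54.4 to 93.9) in the 19 peaks of 1500 bp or more. With the midpoint rule the last 3 classes had 12.6%, 25% and 68.4%. Within the set the share overlapping GATA1 was therefore highest among the widest members. Even so, 50 of the 113 overlapping wide peaks were 700 to 999 bp wide.

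**Figure D4:**
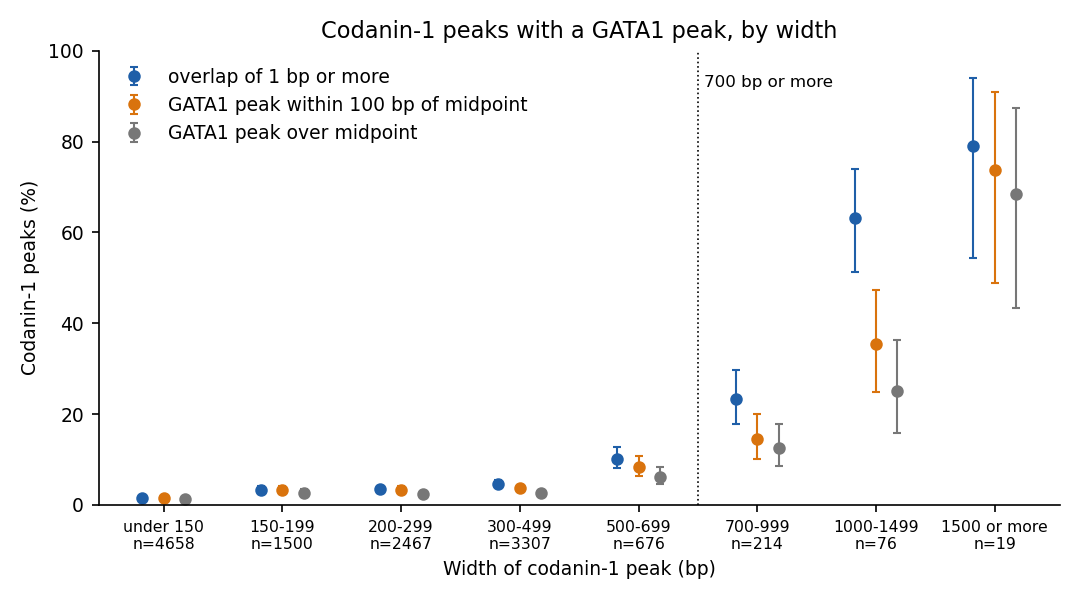
Share of codanin-1 peaks with a GATA1 peak (y axis, percent) by width of the codanin-1 peak (x axis, bp, with the number of peaks in each class), for an overlap of at least 1 bp, a GATA1 peak within 100 bp of the midpoint and a GATA1 peak over the midpoint; bars are 95% exact binomial intervals. All 3 rules rise with width, from 1.46% under 150 bp to 78.9% at 1500 bp or more for the 1 bp rule.

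Overlap was concentrated in the runs. Of the 101 wide peaks in runs, 68 overlapped a GATA1 peak (67.3%, 95% exact interval 57.3 to 76.3), and of the 208 outside runs 45 did (21.6%, 16.2 to 27.9). The midpoint was covered in 45.5% (35.6 to 55.8) of the first and in 6.25% (3.37 to 10.5) of the second. For reference peaks in windows with a wide peak the overlap share was 7.63% (6.73 to 8.60) and the midpoint share 5.17% (4.43 to 5.99). For wide peaks outside runs the 1 bp share thus exceeded that of reference peaks from the same windows, whereas the midpoint shares had overlapping intervals. Runs of 3 or more had GATA1 at 44 of 51 wide peaks, and pairs at 24 of 50.

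GATA1 peaks were also denser around the wide peaks, not only at them. At 5 kb to either side of the midpoint, 5.50% of wide peaks and 0.547% of reference peaks had that base in a GATA1 peak, a ratio of 10.1. At the midpoint the ratio was 8.36. Against reference peaks in the same windows the ratios were 3.27 at 5 kb and 3.69 at the midpoint. In relative terms the excess of GATA1 peaks at 5 kb was therefore about as large as at the midpoint base. It was larger toward the edges of the wide peaks. At 300 bp after the midpoint, a base inside every wide peak, the shares were 18.1% for wide and 1.02% for reference peaks. Reference peaks in the same windows had 2.65% there. Most reference peaks end before that base, as their median width was 205 bp. The median distance to the nearest GATA1 peak was 6159 bp for wide peaks (95% exact interval 1893 to 13551) and 128540.0 bp for the reference (121659 to 135137).

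**Figure D5:**
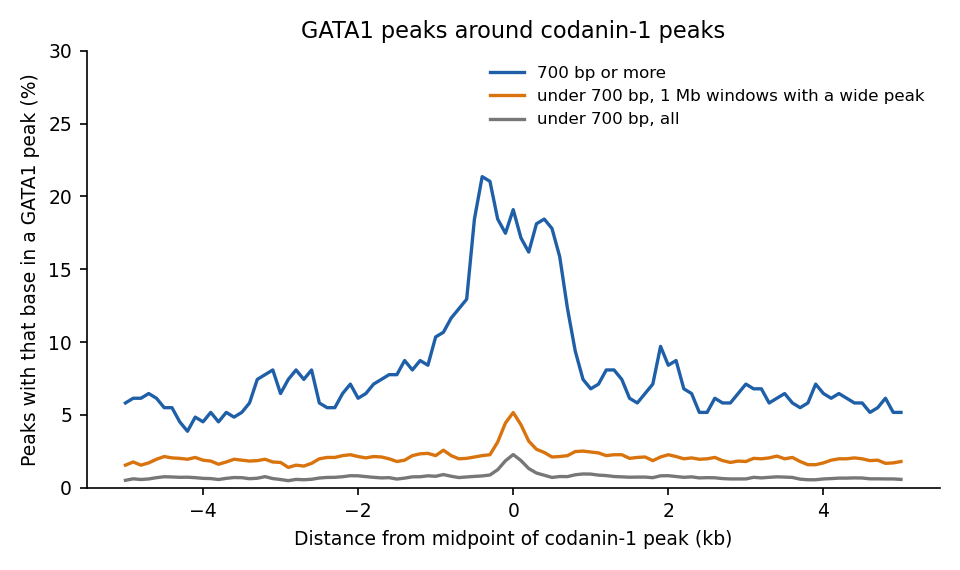
Share of codanin-1 peaks whose base at a given distance from the midpoint lies in a GATA1 peak (y axis, percent; x axis, kb, steps of 100 bp), for wide peaks, peaks under 700 bp in 1 Mb windows with a wide peak, and all peaks under 700 bp. The wide peaks have a broad plateau that reaches 21.4% and stay between 3.88% and 8.74% from 2 to 5 kb, while all peaks under 700 bp reach 2.28% at the midpoint.

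Wide peaks with and without GATA1 differed in the codanin-1 list itself. The 113 with a GATA1 peak had a median width of 1051 bp, a median fold enrichment of 3.41 and a median −log10 q of 1.95, and their nearest codanin-1 neighbour was a median of 2301 bp away. The 196 without had 818 bp, 4.01, 1.66 and 13848 bp. Low enrichment went with overlap: 39 of the 42 wide peaks with a fold enrichment under 3 overlapped a GATA1 peak (92.9%, 95% exact interval 80.5 to 98.5), and 74 of the 267 others (27.7%, 22.4 to 33.5). Of those 42, 29 stood in runs, against 32.7% of all wide peaks. In the reference 106 of 154 peaks under 3-fold (68.8%, 60.9 to 76.0) and 2.55% of the rest (2.28 to 2.84) overlapped GATA1.

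In 32 wide peaks, GATA1 peaks covered 80% or more of the length. Of these, 26 had a codanin-1 fold enrichment under 3 and 27 stood in runs. Among all wide peaks those shares were 13.6% and 32.7%. Over the 113 overlapping wide peaks, the fold enrichments of codanin-1 and of the highest GATA1 peak beneath it rose together (Pearson's r 0.80, Spearman's rho 0.78). That correlation is a description across regions of the same pair of libraries, and neighbours within a run are not independent points. Both values are ratios to a background that the sources do not name. Whether the lists share that background is unknown, and its part in the correlation was not tested.

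The highest GATA1 fold enrichments accordingly lay at wide peaks that were not low in codanin-1. Of the 10 with the highest GATA1 fold enrichment, 6 stood alone and all had a codanin-1 fold enrichment over 3. Among all 309 wide peaks 208 stood alone and 267 had a codanin-1 fold enrichment of at least 3, so both traits were common in the whole set. The highest GATA1 fold enrichment, 5.49, was at chr21:47053227-47054183 (codanin-1 4.76-fold, 957 bp), followed by 5.22 at chr21:43234324-43235369 (4.39-fold, 1046 bp) and 5.07 at chr16:31971361-31972453 (5.04-fold, 1093 bp). The next were chr4:1391244-1392030 (GATA1 4.98, codanin-1 4.61), chr11:189330-190073 (4.98 and 3.71) and chr14:104717312-104718253 (4.92 and 4.92). The last 4 were chr7:100642225-100643280 (4.90 and 3.76), chr8:145912261-145913351 (4.89 and 4.81), chr14:19747576-19748421 (4.88 and 3.66) and chr5:70520471-70521191 (4.84 and 3.62). Each of these 10 was above every member of the largest run, on chromosome 4, in codanin-1 enrichment. So were most wide peaks: that run reached 3.11-fold, and the lower quartile of all wide peaks was 3.53-fold. The GATA1 peaks at these sites were 73 to 523 bp wide, so each was narrower than the codanin-1 peak it met. Those codanin-1 peaks were chosen for their width, and the median width of all 3934 GATA1 peaks on these chromosomes was 155 bp. The selection rule thus favours this outcome, so it does not show how far codanin-1 enrichment extends beyond GATA1.

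Seen from the GATA1 list, 148 of 3934 GATA1 peaks on these chromosomes overlapped a wide codanin-1 peak (3.76%). They were wider than other GATA1 peaks, with a median of 380 bp against 233.5 bp for the 404 that met a reference peak alone and 143 bp for the 3382 that met no codanin-1 peak. Their median GATA1 fold enrichment was 3.88, against 4.16 and 4.24. GATA1 peaks of 700 bp or more numbered 140, and 46 of these (32.9%, 95% exact interval 25.2 to 41.3) overlapped a wide codanin-1 peak, while 101 (72.1%, 63.9 to 79.4) overlapped a codanin-1 peak of any width. Over all GATA1 peaks here the latter share was 14.03%. Some stretches of wide enrichment thus met in both libraries by at least 1 bp. Longer GATA1 peaks touch another peak more easily, and no rule free of their width was used here.

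A minority of wide peaks lay far from GATA1. The nearest GATA1 peak was over 100 kb away for 64 wide peaks (20.7%, 95% exact interval 16.3 to 25.7) and for 54.4% of reference peaks (53.6 to 55.3). The widest of these 64 was chr6:909412-910975, 1564 bp wide at 4.06-fold, with a GATA1 peak 529237 bp away. Next were chr2:70202414-70203487 (1074 bp, 3.99-fold, 911623 bp away) and chr4:4291079-4292124 (1046 bp, 4.52-fold, 683391 bp away). None of the 3 stood in a run. In fold enrichment they resembled the wide peaks without GATA1 as a whole, whose median was 4.01.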

How the data were processed

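Peak lists of 2 ChIP-seq libraries, Cod1 and GATA1, were used as deposited. BWA, MACS2 and hg19 are named, without versions or roles, in the submitters' processing notes. For the background library, thresholds and filters the sources used here give nothing. Each list has 9 columns. The fold enrichment (ratio), −log10 p-value and −log10 q-value of every peak are the authors' deposited values, as is the score, which was not used. Files give no read counts, so depth is unknown. Coordinates are hg19, written from 1. The gene and promoter tables supplied use a different build, so genes and sequences of the peaks are not given.

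Width was end minus start. Overlap needed at least 1 bp unless stated. Shares carry 95% Clopper-Pearson intervals and medians exact binomial intervals from order statistics. A count of 0 was bounded by 3 counts. Regions named were the 10 widest, the 5 largest runs, the 10 with the highest GATA1 fold enrichment, the 3 widest over 100 kb from GATA1, and the 3 on either side of the threshold, with the 3 extreme chromosomes and windows. The function for overlaps, distances and neighbours was tested on simulated data. Members, lists and rules were chosen with earlier results of these data known. Python 3.11.15, numpy 2.4.6, pandas 2.3.3, scipy 1.17.1 and matplotlib 3.10.9 were used.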

Additional observations from a re-analysis of the deposited data

Results flagged for a closer look

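Codanin-1 peaks assigned to chromosome Y were left out of every comparison above. Of the 51 listed there, 13 (25.5%, 95% exact interval 14.3 to 39.6) were 700 bp or wider. The share was 2.39% on chromosomes 1 to 21, and on chromosome X it was 0 of 67. Whether the reads behind these peaks came from chromosome Y was not tested, so they are not evidence of codanin-1 there. No cause was tested.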

How the results depend on the processing

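Alternatives without chromosome 4, with fold enrichment of at least 3, without chromosome starts far from position 1, with runs removed or counted once, and with reference peaks from windows with a wide peak were chosen after seeing the data. In all 10 alternatives that give both overlap shares, wide peaks exceeded the reference, as in all 9 for the midpoint and all 8 for a wide nearest peak. Their neighbours were nearer in all 8 for distance. These counts leave out alternatives that change 1 class only. Wide peaks outside runs, set against reference peaks from windows with a wide peak, had overlap shares of 21.6% and 7.63%. The midpoint shares were 6.25% and 5.17%. There the median neighbour distance was longer for wide peaks, 16528 against 9710 bp. Their nearest peak was less often wide, 0.481% against 8.59%, and definitions set part of both differences. Of 95 alternative values, 41 stayed within the interval of the reported value (for the number of peaks, within 1.5 times). Values below are wide, then reference.

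The number of wide peaks was 985 at 500 bp, 95 at 1000 bp, 93 at a −log10 q of at least 2 and 558 after merging peaks within 1 kb. The overlap shares were 18.5% and 2.97% at 500 bp, 66.3% and 3.69% at 1000 bp, 55.9% and 5.56% at the q threshold, and 28.7% and 2.37% after merging. They were 30.4% and 2.05% when 0.5 of the GATA1 peak had to lie inside, 21.7% and 2.01% with GATA1 peaks of −log10 q of at least 2, and 27.7% and 2.55% at a fold of at least 3. The reference share was 5.47% for GATA1 within 1 kb, 3.04% without chromosome 4 and 7.63% in windows with a wide peak. The wide share was 21.6% outside runs and 29.9% with runs counted once.

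The midpoint shares were 35.5% and 4.36% at the q threshold, 10.8% and 1.51% after merging, and 10.1% and 1.57% at a fold of at least 3. The wide share was 10.3% at 500 bp, 33.7% at 1000 bp and 6.25% outside runs. The reference share was 1.57% with stricter GATA1 peaks, 3.03% within 100 bp of the midpoint and 5.17% in windows with a wide peak.

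The median neighbour distances were 14856 and 128495 bp at the q threshold. The wide value was 12549 bp at 500 bp, 5037 bp at 1000 bp and 16528 bp outside runs, and the reference value 27233 bp after merging and 9710 bp in windows with a wide peak. The nearest peak was wide in 6.32% and 0.585% at 1000 bp and 23.7% and 2.69% at the q threshold. The wide share was 0.481% outside runs, where the definition of a run sets it low. The reference share was 7.42% at 500 bp, 4.06% after merging and 8.59% in windows with a wide peak. The share in runs was 38.7% at the q threshold, 22.01% with a link of 10 kb, 46.9% with 200 kb and 25.1% at a fold of at least 3. Width thresholds, merging and links redefine the set itself; for the q and fold thresholds the cause was not tested. Reads per library are unknown, so the limit that depth sets is unknown too.

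No paired analysis was possible because the Cod1 and GATA1 antibodies have a single library each. Leaving out a library was not possible either.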
